A study of Homo sapiens with 36 samples.

Results

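The BCL2 survival proteins and the BAX-type effectors were followed as 8 genes, chosen by symbol from the 37549 gene symbols of the count table. These were the survival genes BCL2, MCL1, BCL2A1, BCL2L1 and BCL2L2 and the effector genes BAX, BAK1 and BOK. All 8 were listed, and 7 of them had enough counts to be tested, BOK being the exception. The counts came from 36 RNA-sequencing libraries of the leukaemic B-cell lines MEC1, JVM2 and EHEB, with 3 libraries in each of 12 groups, named here by line and library number. Cells received the solvent DMSO alone, 50 µM of fludarabine (a purine analogue), 5 µM of ibrutinib (an inhibitor of Bruton tyrosine kinase, BTK) or 10 µM of idelalisib (an inhibitor of phosphoinositide 3-kinase). MEC1 cells were exposed for 48 h, JVM2 cells for 72 h and EHEB cells for 96 h. Line and exposure time therefore cannot be told apart. The methods of the study speak of independent experiments in general without naming the sequencing libraries, so p-values measure the spread between libraries, which may be technical. Lower doses that the methods list were not analysed here.

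BCL2 proteins decide whether the outer membrane of the mitochondrion stays closed. BAX and BAK, the product of BAK1, form pores in this membrane and let cytochrome c out, which starts the caspase cascade, whereas BCL2, BCL-xL (from BCL2L1), BCL-w (from BCL2L2), MCL1 and A1 (from BCL2A1) bind the effectors and hold them back. BH3-only proteins such as PUMA, NOXA and BIM occupy the survival proteins or activate the effectors directly. Chronic lymphocytic leukaemia cells are known for abundant BCL2 and for their sensitivity to the BCL2 inhibitor venetoclax, while MCL1, a protein that turns over quickly, and BCL-xL are known as substitutes when BCL2 is blocked. The libraries measured RNA only.

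Total estimated counts ran from 26590705 to 53538925 per library, with a median of 42114145. In each line the DMSO and fludarabine libraries carried a run of library numbers. The kinase inhibitor libraries carried another, which held no DMSO library. The labels do not say whether these runs of numbers were batches. A batch and a drug effect therefore cannot be told apart for ibrutinib or idelalisib against DMSO. All 6 B-cell markers were detected, and their summed level fell between 944 and 1041 CPM (counts scaled to library size) in the DMSO libraries of MEC1, between 1230 and 1267 in those of JVM2, and between 1593 and 1661 in those of EHEB. Fludarabine libraries of these lines held 859.8 to 872, 658 to 731 and 886 to 985 CPM, and with ibrutinib and idelalisib in MEC1 it reached 1548 to 1776 and 1582 to 1595 CPM. Summed plasma-cell markers lay between 228 and 725 CPM in all libraries. T-cell, myeloid and erythroid markers summed to at most 15.5, 5.81 and 0.540 CPM. Of the T-cell markers, CD3D and CD3G were at or near 0, whereas CD3E reached 5.59 CPM and CD2 11.95 CPM. With DMSO the T-cell sum was 9.76 to 12.65 CPM in EHEB, 0.417 to 0.677 in MEC1 and at most 0.247 in JVM2. In MEC1 mitochondrial genes took 0.396 to 0.608% of counts with DMSO and 0.792 to 1.06% with fludarabine. The shares were 0.420 to 0.467% and 0.768 to 1.16% for JVM2, and 1.27 to 1.66% and 2.28 to 2.66% for EHEB. With ibrutinib and idelalisib they were 0.682 to 0.862% and 0.913 to 0.958% in MEC1, 0.679 to 0.828% and 0.886 to 1.02% in JVM2, and 1.67 to 2.31% and 1.45 to 2.05% in EHEB. In MEC1 the 10 most abundant genes of a library took 21.2 to 23.9% of counts with idelalisib and 11.9 to 14.2% with DMSO. The part of these shifts in the results was not tested. In RNA from whole cultures, fewer cells of a type and less RNA per cell cannot be told apart.

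Fludarabine lowered BCL2 and raised BCL2L1 and BAX in all 3 lines. MCL1 rose in JVM2 and fell in EHEB, and BCL2A1 rose in MEC1 and EHEB and fell slightly in JVM2. Idelalisib raised BCL2A1 to 2.43 times its DMSO level in MEC1 and lowered it in JVM2 and EHEB, where it raised BCL2. Ibrutinib changed 5 of the 7 tested members in MEC1, most of all BCL2A1, where 47.6% of all genes passed the test. This count was 3 in a joint fit of all 36 libraries. In JVM2 and EHEB ibrutinib passed the test for no member, where 29.4% and 19.7% of all genes passed. Changes are given as fitted log2 fold changes with their standard error (SE) and the adjusted p of the quasi-likelihood F-test of edgeR (Benjamini-Hochberg, over all genes tested), and a gene was called where the adjusted p was under 0.05. The 3 drug comparisons of a line share the same DMSO libraries.

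With fludarabine, 5 members were called in MEC1, 3 higher and 2 lower, against 43.9% of all genes tested there (21.2% higher and 22.7% lower). In JVM2 6 members were called with fludarabine, 4 higher and 2 lower, against 47.2% of all genes (23.9% higher, 23.3% lower). In EHEB the numbers were again 6, with 4 higher and 2 lower, against 37.5% of all genes (18.4% higher, 19.2% lower). The median log2 fold change of the 7 members was 0.30, 0.35 and 0.52 in these lines, beside 0.05, 0.06 and 0.02 over all genes. With ibrutinib, 5 members were called in MEC1, 3 higher and 2 lower, beside 47.6% of all genes (23.7% higher, 23.9% lower). In JVM2 edgeR called 0 members with ibrutinib, 2 having an unadjusted p under 0.05, and DESeq2 and limma-voom called 1 each, while 29.4% of all genes were called (14.5% higher, 15% lower). In EHEB edgeR also called 0 with ibrutinib, 2 having an unadjusted p under 0.05, DESeq2 called 1 and limma-voom 0, and 19.7% of all genes were called (8.5% higher, 11.2% lower). With idelalisib, 3 members were called in MEC1, 1 higher and 2 lower, where 55% of all genes were called (27.6% higher, 27.4% lower), so that the members' share lay below that of all genes. In JVM2 6 were called with idelalisib, 3 in each direction, against 44.2% of all genes (21.6% higher, 22.6% lower). In EHEB 2 were called, 1 in each direction, against 33.3% (15.1% higher, 18.2% lower). Over the 9 comparisons BCL2A1 was called most often, in 7. BCL2, BCL2L1, BAX and BAK1 were called in 5 each, and MCL1 and BCL2L2 in 3 each. The calls of BCL2L1 were all higher. Those of BCL2L2 were all lower and all in MEC1, while its log2 fold changes in EHEB were 0.07, 0.34 and 0.54 without a call.

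**Figure D1:**
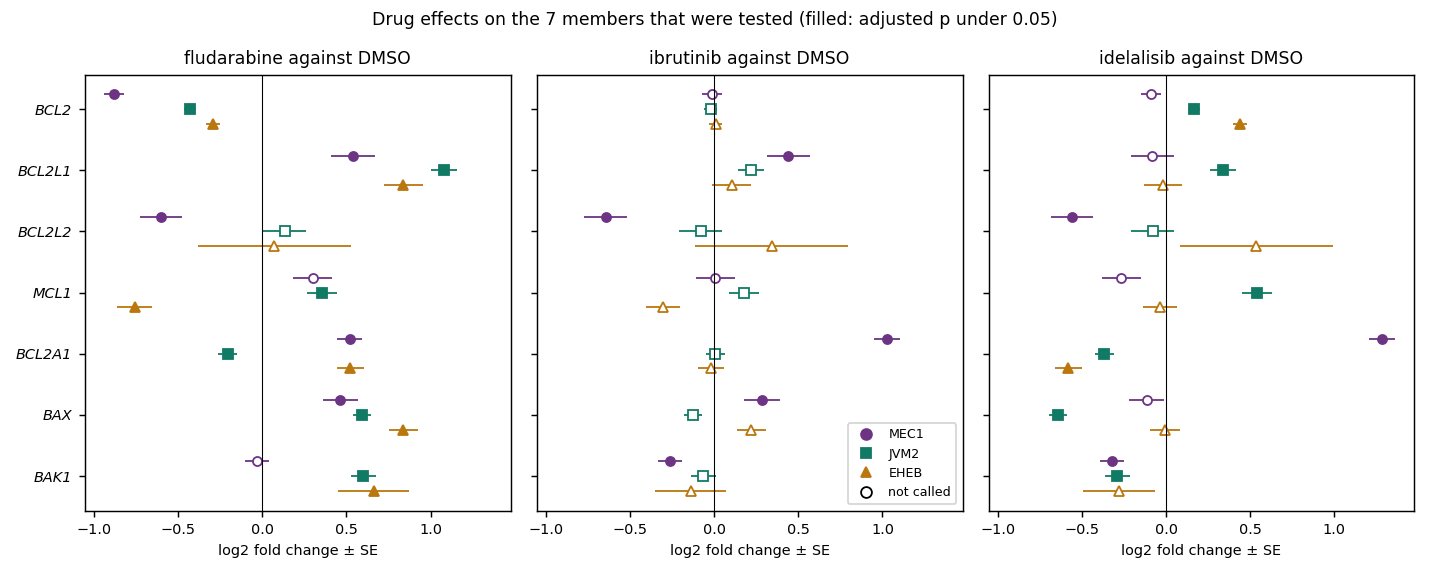
Log2 fold change of the 7 tested members against DMSO (x axis, with SE as bars) for fludarabine, ibrutinib and idelalisib in MEC1, JVM2 and EHEB (panels), filled where the adjusted p was under 0.05. The values run from −0.88 for BCL2 with fludarabine to 1.28 for BCL2A1 with idelalisib, both in MEC1.

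BCL2, the founding survival gene and the target of venetoclax, lies on chromosome 18 of GRCh38 from 63123346 to 63320128 on the minus strand (ENSG00000171791.14), and most of this span is 1 intron between its 2 coding exons. In MEC1 it stood at 464, 510.3 and 469.7 CPM with DMSO and at 272, 266 and 256 CPM with fludarabine. In JVM2 the DMSO libraries held 799, 789 and 781 CPM and the fludarabine libraries 611, 602 and 580.1 CPM. In EHEB they held 543, 563 and 559.7 CPM with DMSO and 447, 450.4 and 433 CPM with fludarabine. Every fludarabine library thus lay below every DMSO library of its line. The log2 fold change was −0.88 in MEC1 (SE 0.0596, adjusted p = 8.3e-07), to 0.543 of the DMSO level. It was −0.43 in JVM2 (SE 0.0365, adjusted p = 3.12e-06) and −0.29 in EHEB (SE 0.0407, adjusted p = 0.000182). The fall differed between the lines in a test of the line by treatment interaction (adjusted p = 2.99e-06) and was largest in MEC1. With ibrutinib BCL2 held 472, 470.1 and 473 CPM in MEC1, inside the range of DMSO, and its log2 fold change was −0.01, −0.02 and 0.01 in MEC1, JVM2 and EHEB, with 95% intervals of −0.13 to 0.11, −0.09 to 0.05 and −0.07 to 0.09. With idelalisib BCL2 rose in JVM2, to 872, 907 and 894 CPM (log2 fold change 0.17, SE 0.0364, adjusted p = 0.00327), and in EHEB, to 749, 741 and 736 CPM (log2 fold change 0.44, SE 0.0408, adjusted p = 1.19e-05). In MEC1 idelalisib gave 389, 472 and 431 CPM, which overlapped DMSO (log2 fold change −0.09, adjusted p = 0.211, and −0.15 with 0.00669 in a joint fit of all 36 libraries). The effect of idelalisib differed between the lines (adjusted p = 3.43e-05).

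**Figure D2:**
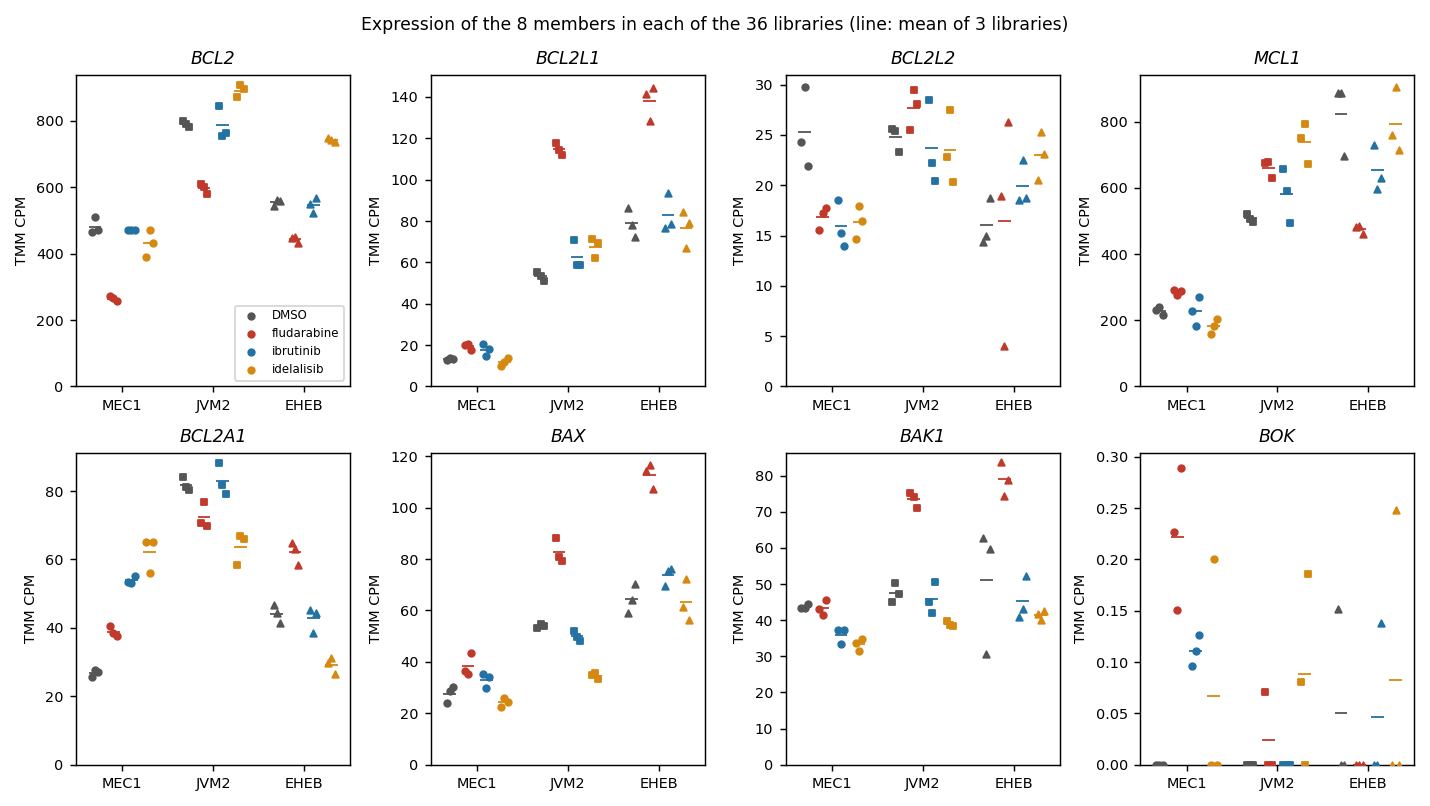
CPM of each member in each of the 36 libraries (y axis, linear scale), by line and treatment, with a point per library and a bar at the mean. BCL2 lies lower with fludarabine than with DMSO in all 3 lines, and in EHEB a DMSO library stands at 30.7 CPM of BAK1 while the others hold 62.6 and 59.8.

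MCL1, which encodes a short-lived survival protein, lies on chromosome 1 from 150560895 to 150579738 on the minus strand (ENSG00000143384.14). In JVM2 it rose with fludarabine from 521, 505 and 496 CPM to 676, 679 and 628 CPM (log2 fold change 0.35, SE 0.0889, adjusted p = 0.00689). In EHEB it fell from 886, 886 and 696 CPM with DMSO to 483, 484 and 460.0 CPM (log2 fold change −0.76, SE 0.103, adjusted p = 0.000148). The 2 lines thus moved in opposite directions, and the groups did not overlap in either. In MEC1 the fludarabine libraries, at 292, 277 and 287.8 CPM, also lay above the DMSO libraries, at 231, 240.2 and 216 CPM, but the difference did not pass the test (log2 fold change 0.30, adjusted p = 0.0557). Under 6 of 8 alternative settings it did, the adjusted p ranging from 0.00215 to 0.104 over all of them. The fludarabine effect differed between the lines (adjusted p = 2.87e-07). With idelalisib MCL1 reached 751, 794 and 672 CPM in JVM2 (log2 fold change 0.54, SE 0.0891, adjusted p = 0.000564), also above ibrutinib (log2 fold change 0.36, adjusted p = 0.0171). The latter call was lost without JVM2_238 (adjusted p = 0.0654) or JVM2_239 (0.0720), 2 of the idelalisib libraries, and ranged from 0.00187 to 0.0631 over the alternatives. In MEC1 idelalisib gave 158, 181 and 204 CPM, all below DMSO, with a log2 fold change of −0.27 that did not pass (adjusted p = 0.0707, 0.0169 to 0.245 over the alternatives) and passed without the idelalisib library MEC1_192 (−0.38, adjusted p = 0.0262). In EHEB the log2 fold change with idelalisib was −0.03 (95% interval −0.24 to 0.17). Ibrutinib passed for MCL1 in none of the lines, with log2 fold changes of 0.01, 0.18 and −0.31 in MEC1, JVM2 and EHEB. It passed in JVM2 without JVM2_234 (0.29, adjusted p = 0.0192) or when libraries were scaled by their totals alone (0.25, adjusted p = 0.0424). It passed in EHEB without EHEB_135 (−0.40, adjusted p = 0.0136) or EHEB_280 (−0.39, adjusted p = 0.0407) or with DESeq2 (−0.31, adjusted p = 0.0311). In MEC1 the difference between idelalisib and ibrutinib of −0.27 did not pass (adjusted p = 0.148), but passed without MEC1_185 (−0.39, adjusted p = 0.0251) and with scaling by totals alone (−0.45, adjusted p = 0.0140). The idelalisib effect differed between the lines (adjusted p = 0.000683).

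BCL2A1 encodes A1, a survival protein that is a well-known target of NF-kB in B cells, and lies on chromosome 15 from 79960892 to 79971196 on the minus strand (ENSG00000140379.9). The 250 bases before its RefSeq start, at chr15:79971197-79971446 on the minus strand of GRCh38.p14, are shown because its RNA changed in most comparisons. Capitals mark, in order, a STAT site (TTCNNNGAA, first base at −168 from the start) and a TATA box (TATAAA, first base at −70).
BCL2A1: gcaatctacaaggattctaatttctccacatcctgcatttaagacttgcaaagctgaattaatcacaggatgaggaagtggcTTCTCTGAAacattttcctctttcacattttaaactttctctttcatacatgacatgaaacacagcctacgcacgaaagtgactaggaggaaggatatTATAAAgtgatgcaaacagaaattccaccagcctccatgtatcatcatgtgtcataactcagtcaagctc
Of 35116 RefSeq promoters of 300 bases, 250 before and 50 after the start, 7.66% held the STAT letters and 11.53% the TATA letters on either strand. The letters of an AP-1 site (TGANTCA), a CRE core (TGACGT) and the NF-kB site, held by 7.71%, 7.98% and 11.3% of promoters, were not in this window of BCL2A1, which says nothing of the factors. Of the 8 members 6 had an entry in the promoter table, all but MCL1 and BCL2L2.

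In MEC1 all 3 drugs raised BCL2A1. It stood at 25.7, 27.7 and 27.0 CPM with DMSO, at 40.5, 38.4 and 37.7 with fludarabine, at 53.3, 53.2 and 55.2 with ibrutinib and at 65.1, 56.0 and 65.2 with idelalisib. No library of a drug overlapped DMSO, and the order was idelalisib, ibrutinib, fludarabine, DMSO. The log2 fold changes were 0.52 (SE 0.0761, adjusted p = 0.000227), 1.03 (SE 0.0764, adjusted p = 1.39e-06) and 1.28 (SE 0.0768, adjusted p = 1.82e-07) for fludarabine, ibrutinib and idelalisib. The difference of 0.26 between the kinase inhibitors passed narrowly (adjusted p = 0.0416). It was lost without MEC1_184 (adjusted p = 0.167), MEC1_185 (0.0692), MEC1_186 (0.101), MEC1_190 (0.188) or MEC1_192 (0.187) and ranged from 0.0124 to 0.461 over the alternatives. In EHEB fludarabine raised BCL2A1 as well, from 46.8, 44.3 and 41.4 CPM to 64.8, 63.0 and 58.4 CPM (log2 fold change 0.52, SE 0.0783, adjusted p = 0.000297). Idelalisib lowered it there to 29.8, 31.1 and 26.5 CPM (log2 fold change −0.58, SE 0.0787, adjusted p = 0.000194), and it lay below ibrutinib (log2 fold change −0.56, adjusted p = 0.000685). In JVM2 it fell with idelalisib from 84.1, 81.0 and 80.4 CPM to 58.4, 66.9 and 65.8 CPM (log2 fold change −0.37, SE 0.0565, adjusted p = 0.000335), again below ibrutinib (log2 fold change −0.37, adjusted p = 0.00112). With fludarabine the JVM2 libraries held 70.7, 76.8 and 69.6 CPM (log2 fold change −0.20, SE 0.0564, adjusted p = 0.0118). This small fall was absent when libraries were scaled by their totals alone (log2 fold change −0.0065, adjusted p = 0.937, 0.00411 to 0.937 over the alternatives). Ibrutinib gave log2 fold changes of 0.00 in JVM2 (95% interval −0.11 to 0.12) and −0.02 in EHEB (−0.17 to 0.14). The effects of fludarabine, ibrutinib and idelalisib on BCL2A1 each differed between the lines (adjusted p = 6.38e-06, 6.43e-07 and 6.8e-09).

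BCL2L1 encodes BCL-xL, a long-lived survival protein, and lies on chromosome 20 from 31664452 to 31723989 on the minus strand (ENSG00000171552.14). A shorter splice form of the same gene, BCL-xS, is known to favour death, and the forms cannot be told apart in gene counts. In JVM2 BCL2L1 stood at 55.3, 53.6 and 50.9 CPM with DMSO and at 118, 115 and 112 CPM with fludarabine, 2.12 times higher (log2 fold change 1.08, SE 0.0772, adjusted p = 8.01e-07). In EHEB it rose from 86.5, 78.2 and 72.2 CPM to 141.6, 128 and 144.2 CPM (log2 fold change 0.84, SE 0.116, adjusted p = 0.000164). In MEC1, where it was scarce, it rose from 12.9, 13.6 and 13.2 CPM to 19.9, 20.8 and 17.8 CPM (log2 fold change 0.54, SE 0.129, adjusted p = 0.00571). Fludarabine and DMSO libraries did not overlap in any line, and the effect differed between the lines (adjusted p = 0.00373, up to 0.0530 over the alternatives). The overlapping RNA ABALON, on the opposite strand, held 3.09 to 13.7 CPM over all libraries and was also higher with fludarabine in JVM2, at 13.2, 12.5 and 13.7 CPM against 6.06, 5.41 and 3.82 CPM, and whether the counting used strand is not given in the sources used here. With ibrutinib BCL2L1 rose in MEC1 to 20.3, 14.9 and 18.1 CPM (log2 fold change 0.44, SE 0.129, adjusted p = 0.0151), a call that was lost without MEC1_184 (0.33, adjusted p = 0.0792). In JVM2 the ibrutinib libraries, at 71.0, 58.6 and 58.6 CPM, lay above DMSO without passing (log2 fold change 0.22, adjusted p = 0.053, 0.0174 to 0.174 over the alternatives), and passed without JVM2_233 (adjusted p = 0.0488) or JVM2_234 (0.0412). In EHEB its log2 fold change with ibrutinib was 0.10 (95% interval −0.12 to 0.33). Idelalisib raised BCL2L1 in JVM2 to 71.1, 61.9 and 69.4 CPM (log2 fold change 0.34, SE 0.0765, adjusted p = 0.0043) and gave −0.08 in MEC1 and −0.02 in EHEB, neither of which passed. In MEC1 idelalisib lay below ibrutinib (log2 fold change −0.52, adjusted p = 0.0195), a call that was lost without MEC1_184 (adjusted p = 0.0771), MEC1_186 (0.0577) or MEC1_190 (0.0693).

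BCL2L2 encodes BCL-w and lies on chromosome 14 from 23298790 to 23311751 on the plus strand (ENSG00000129473.11). It fell with every drug in MEC1, from 24.3, 29.7 and 21.9 CPM with DMSO to 15.6, 17.2 and 17.7 with fludarabine, 18.5, 15.3 and 13.97 with ibrutinib and 14.7, 17.9 and 16.4 with idelalisib. None of the drug libraries overlapped DMSO. The log2 fold changes were −0.60 (SE 0.127, adjusted p = 0.00256), −0.65 (SE 0.126, adjusted p = 0.00143) and −0.56 (SE 0.126, adjusted p = 0.00293). In a joint fit of all 36 libraries, which shares 1 estimate of spread between the lines, all 3 calls were lost (adjusted p = 0.150, 0.0743 and 0.101, the lowest over the alternatives being 0.00012, 1.46e-05 and 0.000204). The fludarabine call was also lost when libraries were scaled by their totals alone (log2 fold change −0.36, adjusted p = 0.0510). In JVM2 BCL2L2 passed with no drug, its log2 fold changes being 0.13, −0.08 and −0.08. In EHEB the fludarabine libraries held 18.9, 4.06 and 26.3 CPM, and EHEB_143 with 4.06 CPM stood far below its group. The log2 fold change there was 0.07 (SE 0.455), and without EHEB_143 it was 0.52 (adjusted p = 0.0389). With ibrutinib and idelalisib it was 0.34 and 0.54 in EHEB and did not pass. The idelalisib libraries, at 20.5, 25.2 and 23.1 CPM, nonetheless lay above DMSO at 14.3, 14.95 and 18.8 CPM. Their difference passed in a fit of only the 6 libraries compared, which holds no fludarabine library (0.54, adjusted p = 0.0190). A difference between the lines in the fludarabine effect on BCL2L2 did not pass (adjusted p = 0.529, 0.00230 to 0.703 with a library left out). The effects of ibrutinib and idelalisib on BCL2L2 differed between the lines (adjusted p = 0.00422 and 0.00055, up to 0.162 and 0.0855 over the alternatives). BCL2L2 shares exons with the readthrough gene BCL2L2-PABPN1 (0.0506 to 6.47 CPM) and overlaps PPP1R3E (2.41 to 28.1 CPM) and HOMEZ (29.5 to 54.2 CPM) on the opposite strand, so its values depend on how reads were divided among them.

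BAX, the effector that moves from the cytosol to mitochondria, lies on chromosome 19 from 48954815 to 48961798 on the plus strand (ENSG00000087088.21). The 190 bases at chr19:48954625-48954814 on the plus strand of GRCh38.p14, which end before the gene start in GENCODE, are shown because BAX rose with fludarabine in all 3 lines, and capitals mark the E-boxes (CACGTG) in them.
BAX: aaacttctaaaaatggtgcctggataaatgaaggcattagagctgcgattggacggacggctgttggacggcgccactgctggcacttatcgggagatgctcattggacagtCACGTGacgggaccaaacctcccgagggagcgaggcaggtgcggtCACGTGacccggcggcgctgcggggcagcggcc
The 300-base promoter window held 4 E-boxes, with first bases at −138, −93, −45 and −14 from the RefSeq start, and the last 2 lie past the printed stretch. At least 1 was found in 7.26% of the 35116 promoters and at least 4 in 5 of them, or 0.0142%. The letters were in none of the other windows of members. A match is a description of the letters and not a site shown to be used.

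With fludarabine BAX rose from 53.1, 54.7 and 53.99 CPM to 88.3, 80.8 and 79.2 CPM in JVM2 (log2 fold change 0.59, SE 0.0544, adjusted p = 5.91e-06). In EHEB it rose from 59.1, 64.1 and 70.2 CPM to 114, 116.6 and 107 CPM (log2 fold change 0.84, SE 0.0879, adjusted p = 2.07e-05). In MEC1 it rose from 23.96, 28.5 and 30.2 CPM to 36.6, 35.5 and 43.4 CPM (log2 fold change 0.46, SE 0.106, adjusted p = 0.00424). The groups did not overlap in any line. The largest and smallest of these changes were 0.374 apart, a difference between lines that did not pass (adjusted p = 0.161, 0.0831 to 0.36 over the alternatives). Idelalisib lowered BAX in JVM2 to 34.8, 35.6 and 33.5 CPM, 0.64 of its DMSO level (log2 fold change −0.64, SE 0.0547, adjusted p = 4.74e-06), also below ibrutinib (log2 fold change −0.52, adjusted p = 9.97e-05). It gave −0.12 in MEC1 and −0.01 in EHEB, with 95% intervals of −0.32 to 0.09 and −0.18 to 0.16, and the effect differed between the lines (adjusted p = 0.0033). With ibrutinib the MEC1 libraries held 35.1, 29.9 and 34.3 CPM and overlapped DMSO. The log2 fold change of 0.28 there passed narrowly (SE 0.106, adjusted p = 0.0457, 0.0104 to 0.117 over the alternatives) and was lost without MEC1_37 (adjusted p = 0.177), MEC1_38 (0.0907), MEC1_184 (0.165) or MEC1_186 (0.109). The ibrutinib effect on BAX differed between the lines (adjusted p = 0.0373, up to 0.0940 over the alternatives and 0.111 with a library left out). In MEC1 idelalisib lay below ibrutinib (log2 fold change −0.40, adjusted p = 0.0273), a call that was lost without MEC1_184 (adjusted p = 0.0921), MEC1_186 (0.0830), MEC1_190 (0.104) or MEC1_192 (0.0733). Ibrutinib gave −0.13 in JVM2 and 0.22 in EHEB, neither of which passed, and in EHEB the difference of −0.23 between the kinase inhibitors passed only without EHEB_287 (−0.31, adjusted p = 0.0480).

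BAK1 encodes BAK, the effector that resides in the outer mitochondrial membrane, and lies on chromosome 6 from 33572547 to 33580293 on the minus strand (ENSG00000030110.14). With fludarabine it rose in JVM2 from 45.2, 50.3 and 47.2 CPM to 75.1, 74.0 and 71.1 CPM (log2 fold change 0.60, SE 0.0735, adjusted p = 5.28e-05). In MEC1 it stood at 43.4, 43.2 and 44.6 CPM with DMSO and 43.0, 41.5 and 45.5 CPM with fludarabine. The log2 fold change of −0.03 in MEC1 did not pass (adjusted p = 0.744, 0.0170 to 1 over the alternatives) and was 0.22 and called when libraries were scaled by their totals alone (adjusted p = 0.0170). In EHEB the DMSO libraries held 62.6, 30.7 and 59.8 CPM, the lowest being EHEB_134, and the fludarabine libraries 83.6, 74.4 and 78.8 CPM, so that the groups did not overlap (log2 fold change 0.66, SE 0.213, adjusted p = 0.0299). This call was lost without EHEB_142 (adjusted p = 0.0831), EHEB_143 (0.0530) or EHEB_144 (0.0700) and in a fit of only the 6 libraries of the comparison (0.0815), and ranged from 0.000794 over the alternatives. Without the low DMSO library EHEB_134 it held with a smaller change (log2 fold change 0.39, adjusted p = 0.0169). Ibrutinib and idelalisib lowered BAK1 in MEC1, to 37.2, 33.4 and 37.3 CPM (log2 fold change −0.26, SE 0.0708, adjusted p = 0.00956, and 0.0955 in the joint fit, where the call was lost) and to 33.6, 31.6 and 34.9 CPM (−0.32, SE 0.0709, adjusted p = 0.0026). Idelalisib also lowered it in JVM2, to 39.8, 38.7 and 38.5 CPM (log2 fold change −0.29, SE 0.0735, adjusted p = 0.00811, up to 0.137 over the alternatives). In EHEB ibrutinib and idelalisib gave 40.9 to 52.2 CPM and 40.1 to 42.5 CPM, with log2 fold changes of −0.14 and −0.28 that did not pass. Without EHEB_134 they were −0.40 (adjusted p = 0.0304) and −0.53 (adjusted p = 0.00373). The difference of −0.22 between the kinase inhibitors in JVM2 did not pass (adjusted p = 0.0576, 0.0362 to 0.350 over the alternatives) and passed without JVM2_233 (−0.28, adjusted p = 0.0473). The effect of fludarabine on BAK1 was not shown to differ between the lines (adjusted p = 0.0865, 0.0209 to 0.118 over the alternatives). With a library left out the adjusted p ran from 0.000374 to 0.160, so this outcome depended on single libraries. The effects of idelalisib on BAK1, −0.32, −0.29 and −0.28, lay close together.

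BOK, an effector-like protein that does not depend on BH3-only proteins, lies on chromosome 2 from 241551424 to 241574131 on the plus strand (ENSG00000176720.6). It held 0 to 11 counts per library, did not pass the filter on low counts and was not tested in the main fits. It was at 0 counts in every DMSO library of MEC1 and JVM2. A count of 0 allows up to 3 reads, which is 8 of these estimated counts, since low values gather near multiples of 8/3. In MEC1 it had 8, 6 and 9 counts with fludarabine and 5, 5 and 6 with ibrutinib, that is 0.151 to 0.289 CPM and 0.0959 to 0.126 CPM. These counts lie around that bound, which holds for a single library. A difference from DMSO was not tested in the main fits.

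Between the kinase inhibitors, 3 members were called in MEC1, 4 in JVM2 and 2 in EHEB, against 15.4%, 18.7% and 15.9% of all genes. Ibrutinib and idelalisib libraries lay in the same run of numbers, and whether they shared a batch is not given. BCL2 was higher with idelalisib than with ibrutinib in JVM2 (log2 fold change 0.19, adjusted p = 0.00475) and EHEB (0.43, adjusted p = 5.34e-05), and in MEC1 it was −0.08 (95% interval −0.20 to 0.03). The members that differed in MEC1 were BCL2L1, BCL2A1 and BAX, and none of these 3 calls held without a filter on low counts (adjusted p = 0.0506, 0.0521 and 0.0553). A test of the difference between the lines called 4 members for fludarabine, 3 for ibrutinib and 5 for idelalisib, where 39.1%, 33.6% and 45.7% of all genes were called.

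Without drug the lines differed in most tested members, as they did in most genes. Of 7 members 5 were called between MEC1 and JVM2, 6 between MEC1 and EHEB and 6 between JVM2 and EHEB, against 63.8%, 67.4% and 59.6% of all genes. BCL2 with DMSO was highest in JVM2 (790.1 ± 9.06 CPM, SD, n = 3), followed by EHEB (555 ± 10.6) and MEC1 (481 ± 25.2). The neighbouring lines JVM2 and EHEB differed by 0.49 (adjusted p = 1e-05) and EHEB and MEC1 by 0.23, MEC1 being lower (adjusted p = 0.000903, and 0.104 when libraries were scaled by their totals alone, the highest over the alternatives). MCL1 and BCL2L1 had another order, EHEB above JVM2 above MEC1, with 823 ± 110 CPM (SD, n = 3), 507 ± 12.8 and 229 ± 12.2 for MCL1 and 79.0 ± 7.18, 53.2 ± 2.2 and 13.2 ± 0.331 for BCL2L1. MEC1 lay below EHEB by 1.87 on the log2 scale in MCL1 and by 2.60 in BCL2L1 (log2 fold changes −1.87 and −2.60, adjusted p = 1.72e-07 and 1.17e-08). BCL2A1 was highest in JVM2 (81.9 ± 1.958 CPM, SD, n = 3), then EHEB (44.2 ± 2.72) and MEC1 (26.8 ± 0.999), and each pair of lines differed, the log2 fold change of JVM2 against EHEB being 0.87 (adjusted p = 3.4e-06). BCL2L2 was at 25.3 ± 3.98, 24.8 ± 1.25 and 16.01 ± 2.40 CPM (SD, n = 3) in MEC1, JVM2 and EHEB. MEC1 and JVM2 lay above EHEB (log2 fold changes 0.63 and 0.61, adjusted p = 0.00231 and 0.00356), both lost in the joint fit (0.0638 and 0.0892). BAX stood at 27.6 ± 3.22, 53.9 ± 0.815 and 64.5 ± 5.54 CPM (SD, n = 3). MEC1 lay below JVM2 (log2 fold change −0.97, adjusted p = 1.97e-05), and the smaller difference of JVM2 from EHEB (−0.28, adjusted p = 0.0307) was lost without EHEB_134 (0.0621), EHEB_135 (0.0879), JVM2_85 (0.0734), JVM2_86 (0.0655) or JVM2_87 (0.0818). BAK1 passed between no lines, with log2 fold changes of −0.12, −0.25 and −0.12, and without EHEB_134 MEC1 and JVM2 lay below EHEB (−0.51, adjusted p = 0.000353, and −0.39, adjusted p = 0.00222).

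Levels of different genes were compared per kilobase of annotated exons. With DMSO in MEC1, BCL2 (38.2 ± 1.996 CPM per kilobase, SD, n = 3) and MCL1 (36.8 ± 1.958) led and did not differ beyond their spread, followed by BCL2A1 (26.9 ± 1.00), BAK1 (19.8 ± 0.336), BAX (10.6 ± 1.24), BCL2L2 (5.23 ± 0.823) and BCL2L1 (3.15 ± 0.0790). In JVM2, BCL2A1 (82.3 ± 1.97 CPM per kilobase) and MCL1 (81.5 ± 2.05) were level at the top, above BCL2 (62.6 ± 0.718). BAK1 (21.5 ± 1.16) and BAX (20.9 ± 0.315) were level there too, above BCL2L1 (12.7 ± 0.525) and BCL2L2 (5.12 ± 0.259). In EHEB, MCL1 stood far above the rest (132 ± 17.7 CPM per kilobase), BCL2A1 (44.4 ± 2.74) and BCL2 (44.02 ± 0.842) were level, and BAX (24.9 ± 2.14), BAK1 (23.1 ± 7.99) and BCL2L1 (18.8 ± 1.71) overlapped within their spread, above BCL2L2 (3.31 ± 0.496). The order depends on the length used. Per kilobase of the longest protein-coding transcript, another place was taken by 2 members in MEC1, 5 in JVM2 and 4 in EHEB. BCL2 then lay above BCL2A1 in JVM2 (105.9 ± 1.21 against 101.2 ± 2.42) and EHEB (74.4 ± 1.42 against 54.6 ± 3.36). MCL1 stood above both in JVM2 (128 ± 3.24), and BCL2 above MCL1 in MEC1 (64.5 ± 3.37 against 58.0 ± 3.08). By this length BAX lay above BAK1 in JVM2 (39.7 ± 0.600 against 21.5 ± 1.16) and EHEB (47.5 ± 4.08 against 23.1 ± 7.99). In MEC1 the 2 effectors overlapped (20.3 ± 2.37 and 19.8 ± 0.336).

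**Figure D3:**
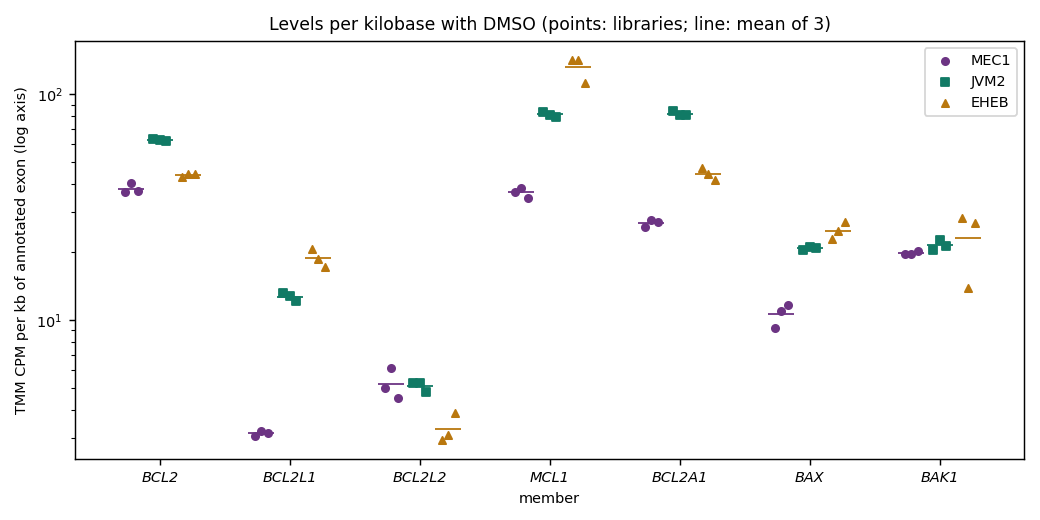
Level of each member with DMSO in CPM per kilobase of annotated exons (y axis, log scale), with a point per library and a bar at the mean, in MEC1, JVM2 and EHEB. MCL1 runs from 36.8 CPM per kilobase in MEC1 to 132 in EHEB, and BCL2L1 from 3.15 to 18.8.

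The mean ratios of MCL1, BCL2L1 and BCL2A1 to BCL2 were higher with fludarabine than with DMSO in every line, MCL1 in EHEB being the exception. The ratio of MCL1 to BCL2, both per kilobase, was 0.965 ± 0.0395 in MEC1, 1.302 ± 0.0179 in JVM2 and 3.01 ± 0.426 in EHEB with DMSO (SD, n = 3). With fludarabine it was 2.19 ± 0.0847, 2.24 ± 0.0463 and 2.17 ± 0.0176, so that the 3 lines, which had spanned a range from 0.932 to 3.31 with DMSO, lay between 2.11 and 2.29. With ibrutinib the means were 0.978, 1.49 and 2.42 and with idelalisib 0.854, 1.68 and 2.17. The ratio of BCL2L1 to BCL2 was 0.0827 ± 0.0024 with DMSO and 0.221 ± 0.0134 with fludarabine in MEC1. In JVM2 these values were 0.202 ± 0.00612 and 0.578 ± 0.00498, and in EHEB 0.428 ± 0.0464 and 0.936 ± 0.0738. The ratio of BCL2A1 to BCL2 went from 0.706 with DMSO to 1.86, 1.45 and 1.85 with fludarabine, ibrutinib and idelalisib in MEC1, whereas in EHEB it went from 1.01 to 1.77, 0.990 and 0.497. In JVM2 it was 1.31 with DMSO and 1.54, 1.34 and 0.906 with the drugs. BAX relative to BCL2 stood at 0.279, 0.333 and 0.566 in MEC1, JVM2 and EHEB with DMSO and at 0.711, 0.675 and 1.24 with fludarabine. In JVM2 it was 0.190 with idelalisib. These ratios were not tested, since each is made of values tested above.

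**Figure D4:**
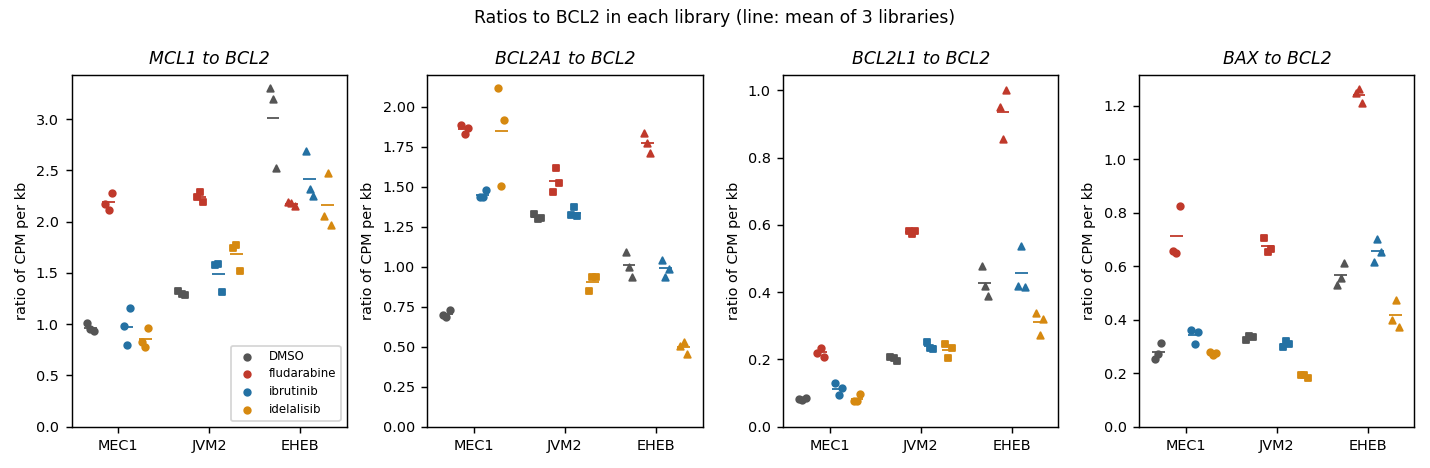
Ratio of MCL1, BCL2L1, BCL2A1 and BAX to BCL2, each in CPM per kilobase (y axis, linear scale), in each library of the 4 treatments (x axis) of MEC1, JVM2 and EHEB. The ratio of MCL1 to BCL2 lies between 2.11 and 2.29 in all 9 fludarabine libraries and between 0.932 and 3.31 in the 9 DMSO libraries.

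The BH3-only genes, whose products act on the members, were a mixed group. Of 8 listed 7 were tested, and with fludarabine 2 rose and 3 fell in MEC1, 2 rose and 1 fell in JVM2, and 2 rose and 1 fell in EHEB. With ibrutinib 1 rose and 3 fell in MEC1, 1 rose and 1 fell in JVM2 and 1 rose and 0 fell in EHEB. With idelalisib the numbers were 1 and 2, 1 and 1, and 2 and 0. Of all genes, 21.2% rose and 22.7% fell with fludarabine in MEC1, 23.9% and 23.3% in JVM2 and 18.4% and 19.2% in EHEB. These shares were 23.7% and 23.9%, 14.5% and 15%, and 8.5% and 11.2% with ibrutinib, and 27.6% and 27.4%, 21.6% and 22.6%, and 15.1% and 18.2% with idelalisib. BBC3, which encodes PUMA, was called in opposite directions in different lines. With fludarabine it fell in MEC1 from 14.5 ± 1.24 to 6.77 ± 0.348 CPM (SD, n = 3; log2 fold change −1.11, adjusted p = 3.98e-06) and rose in JVM2 (0.65, adjusted p = 0.000157) and EHEB, from 20.4 ± 2.33 to 58.5 ± 4.38 CPM (1.55, adjusted p = 5.28e-07). With ibrutinib it fell in MEC1 (log2 fold change −1.56, adjusted p = 3.66e-07) and JVM2 (−0.54, adjusted p = 0.00139). With idelalisib it fell in MEC1 (log2 fold change −1.63, adjusted p = 1.63e-07) and JVM2 (−0.30, adjusted p = 0.0195, up to 0.0868 with a library left out) and rose in EHEB (0.33, adjusted p = 0.0262, up to 0.0892). PMAIP1, which encodes NOXA, the partner of MCL1 and A1, rose with fludarabine in EHEB (log2 fold change 0.89, adjusted p = 0.000158) and fell in MEC1 (−0.82, adjusted p = 0.0241, up to 0.0918 over the alternatives). BMF, another BH3-only gene, named after its values were seen, was also called in opposite directions. With fludarabine it rose in MEC1 (log2 fold change 1.00, adjusted p = 2.23e-06) and fell in EHEB (−0.80, adjusted p = 6.54e-07), and with idelalisib it fell in MEC1 (−0.52, adjusted p = 0.000158) and rose in JVM2 (0.77, adjusted p = 2e-07) and EHEB (0.95, adjusted p = 3.23e-07). BCL2L11, which encodes BIM, passed in none of the 9 drug comparisons, and its libraries varied widely, with 73.9 ± 55.7 CPM (SD, n = 3) in EHEB with DMSO.

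Of 2 genes set beside BAX, MDM2, which encodes a ubiquitin ligase, rose with fludarabine in JVM2 (log2 fold change 1.89, adjusted p = 6.79e-08) and EHEB (1.61, adjusted p = 1.94e-06). In MEC1 it did not pass with fludarabine (0.11, adjusted p = 0.356), although BAX rose there, and it rose with ibrutinib (0.33, adjusted p = 0.0129) and idelalisib (0.51, adjusted p = 0.000671). CDKN1A, which encodes the cell cycle inhibitor p21, rose with fludarabine in MEC1 (log2 fold change 0.61, adjusted p = 8.5e-05) and JVM2 (0.88, adjusted p = 0.0341, up to 0.131 with a library left out) and did not pass in EHEB (1.10, adjusted p = 0.082). It fell in MEC1 with ibrutinib (log2 fold change −1.14, adjusted p = 8.16e-07) and idelalisib (−1.22, adjusted p = 2.95e-07).

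The other lists of the pathway were summarised by their calls, to be read beside the shares of all genes given for the BH3-only genes. The other BCL2 family genes were 5 in all. With fludarabine 2 rose and 1 fell in MEC1, 1 rose and 2 fell in JVM2, and 1 rose and 0 fell in EHEB. With ibrutinib and idelalisib alike, 3 rose and 1 fell in MEC1, and 0 rose and 2 fell in JVM2. In EHEB 0 rose and 0 fell with ibrutinib, and 0 rose and 1 fell with idelalisib. BCL2L13, the most abundant of them, fell with all 3 drugs in JVM2 (log2 fold changes −0.41, −0.47 and −0.46). Of 5 outer membrane partners, with idelalisib 2 rose and 2 fell in MEC1, 2 rose and 2 fell in JVM2 and 0 rose and 3 fell in EHEB, and with fludarabine 0 rose and 2 fell in MEC1, 2 rose and 2 fell in JVM2 and 1 rose and 0 fell in EHEB. VDAC1, a channel of this membrane, fell with idelalisib in all lines (log2 fold changes −0.82, −1.04 and −0.52). The released factors, apoptosome genes and inhibitors were 11. With fludarabine 2 rose and 3 fell in MEC1, 3 rose and 2 fell in JVM2, and 3 rose and 0 fell in EHEB. With ibrutinib these numbers were 1 and 0, 1 and 1, and 2 and 2, and with idelalisib 1 and 0, 0 and 3, and 1 and 4. The inhibitor BIRC3 rose with all 3 drugs in EHEB (log2 fold changes 0.95, 0.59 and 0.51). Of the regulators of MCL1 protein, 6 were tested, and in MEC1 5 of them fell with ibrutinib and 6 with idelalisib, 0 rising, where 23.9% and 27.4% of all genes fell. Their log2 fold changes had medians of −0.29 and −0.64 beside 0.06 and 0.08 over all genes. The ligase HUWE1 fell by 0.97 with idelalisib there (log2 fold change −0.97). The same 6 regulators were less uniform elsewhere. In JVM2 2 rose and 3 fell with fludarabine, 1 rose and 1 fell with ibrutinib, and 2 rose and 2 fell with idelalisib. In EHEB these numbers were 1 and 3, 0 and 2, and 0 and 2, and with fludarabine in MEC1 they were 0 and 2. Of 13 transcription factors known to act on members, 8 fell with ibrutinib and 11 with idelalisib in MEC1 and 0 rose, where the same 23.9% and 27.4% of all genes fell, with medians of −0.55 and −0.83 beside 0.06 and 0.08 over all genes. STAT3 fell in MEC1 with ibrutinib (−0.55) and idelalisib (−1.01) and rose in JVM2 with both (0.41 and 0.70). In JVM2 2 rose and 2 fell of these 13 with idelalisib, and in EHEB 3 rose and 3 fell. With ibrutinib 3 rose and 1 fell in JVM2, and 2 rose and 2 fell in EHEB. Fludarabine gave 2 higher and 3 lower in MEC1, 3 and 5 in JVM2, and 3 and 4 in EHEB.

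Across the 36 libraries, after each value was centred on the mean of its line, BAX varied most closely with BAK1 (Pearson r = 0.772) and BCL2L1 (r = 0.762) among the members, and opposite to BCL2 (r = −0.708). MCL1 and BCL2A1 varied in opposite directions (r = −0.549). These values describe libraries that share their treatments and normalisation. Among 11927 genes, the closest to BAX were PLK3 (r = 0.913) and SESN1 (r = 0.905), to BAK1 FDXR (r = 0.880) and E2F7 (r = 0.880), and to BCL2 TIFA (r = 0.936) and PAN3 (r = 0.929). The closest to BCL2L1 were FAM83H (r = 0.890) and TGS1 (r = 0.884), to MCL1 AP1G1 (r = 0.831), to BCL2A1 ATP5PF (r = 0.930) and ATP5MF (r = 0.889), and to BCL2L2 ERLIN2 (r = 0.771) and SMIM11B (r = 0.732).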

How the data were processed

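Ribosomal RNA-depleted total RNA was sequenced by the authors as 36 libraries, 3 per group. Per the submitters' processing notes, reads were trimmed with Trimmomatic, aligned to GRCh38 with HISAT2 2.1 and assembled into counts with StringTie 1.3.4, and the authors used edgeR 3.22.5. For the strand setting and the Ensembl release, no value is given in the sources used here. The deposited values were estimated counts per gene symbol, already whole numbers, whose low values gathered near multiples of 8/3, so that a value overstates the reads behind it. The row without a symbol (0.00384% of counts) was left out. No libraries were duplicates (after division by 8/3, the 36 replicate pairs had a chi-square of 11.4 to 22.8 for each degree of freedom).

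Each line was fitted over its 12 libraries with edgeR 4.0.16 in R 4.3.3 (TMM, filterByExpr with a count of 10 and a total of 15, quasi-likelihood F-test, Benjamini-Hochberg, adjusted p under 0.05). The DMSO libraries of the lines were fitted together, and differences of a drug effect between lines were tested over both interaction terms in the DMSO and drug libraries. Intervals are the log2 fold change with 1.96 standard errors on each side. Printed CPM were scaled by TMM over all 36 libraries, so ratios of means can differ slightly from fitted folds. Correlations used log2 CPM with a prior count of 2. Lengths and positions came from GENCODE 44 and promoter sequences from RefSeq (GRCh38.p14). The alternatives used DESeq2 1.42.0 and limma 3.58.1. The scripts were tested on simulated data.

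Named genes were all members, PMAIP1, BCL2L11 and BBC3, MDM2 and CDKN1A set beside BAX, the most abundant gene of each other list, the 2 genes most like each member, and overlapping genes. HUWE1, STAT3, VDAC1, BIRC3 and BCL2L13 stand for their lists. The members and lists were chosen with earlier results of these data known. A few results of this rule are not reported here.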

Additional observations from a re-analysis of the deposited data

Results flagged for a closer look

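In 12 cases the effect of a drug on a member differed between the lines in the interaction test of edgeR (adjusted p under 0.05), where 39.1% of all genes did so for fludarabine, 33.6% for ibrutinib and 45.7% for idelalisib. The size given is the gap between the largest and the smallest log2 fold change among the lines. For fludarabine the gap was 0.589 for BCL2 (adjusted p = 2.99e-06), 0.543 for BCL2L1 (adjusted p = 0.00373), 1.11 for MCL1 (adjusted p = 2.87e-07) and 0.728 for BCL2A1 (adjusted p = 6.38e-06). MCL1 was the member that fell in EHEB while it rose in JVM2, and BCL2 and BCL2L1 kept 1 direction in all lines.

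For ibrutinib the gap was 1.04 for BCL2A1 (adjusted p = 6.43e-07), 0.987 for BCL2L2 (adjusted p = 0.00422) and 0.410 for BAX (adjusted p = 0.0373). For idelalisib it was largest for BCL2A1, at 1.86 (adjusted p = 6.8e-09), followed by 1.10 for BCL2L2 (adjusted p = 0.00055), 0.806 for MCL1 (adjusted p = 0.000683), 0.635 for BAX (adjusted p = 0.0033) and 0.530 for BCL2 (adjusted p = 3.43e-05). The A1 gene rose in MEC1 and fell in JVM2 and EHEB. Exposure time and line differed together and cannot be told apart in these values. The gap test for a single outlying value was not run, since it does not cover groups of 3.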

How the results depend on the processing

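Values of the 7 tested members were recomputed under 8 alternatives and with each library left out. Of 1995 recomputed values 68 changed sign, 0 of which had been called. The 1995 include adjusted p of the interaction tests, which have no sign to change. Calls changed more often. Of 1008 values with a library left out, 41 lost their call and 29 gained one without a change of sign. Division of counts by 8/3 was chosen after seeing the data. No paired analysis was possible because the compared groups share no replicate numbers. The cause of the changes below was not tested. Counts of members called changed as follows. With ibrutinib in MEC1 it was 3 in the joint fit of 36 libraries. With ibrutinib in JVM2 it was 2 with scaling by library size and 1 each with DESeq2, limma-voom, a stricter filter (mean of 5 CPM) and counts divided by 8/3. With ibrutinib in EHEB it was 2 with library size scaling and 1 with DESeq2. For idelalisib against ibrutinib in MEC1 it was 5 with library size scaling, 0 with no filter and 1 in a fit of only the 6 libraries. With each library left out these counts ran from 3 to 5, 0 to 2, 0 to 1 and 0 to 3, and that for idelalisib in MEC1 from 3 to 5. They were 3 for ibrutinib in MEC1 and 0 between the inhibitors without MEC1_184, and 5 for idelalisib in MEC1 without MEC1_192. The counts run over all 8 members and take in BOK wherever it entered a fit. Among the 7 tested members only MCL1 gained a call without MEC1_192 (adjusted p = 0.0262), and none lost one. That count of 5 therefore includes BOK, which was near 0 counts. Per kilobase of the longest protein-coding transcript, 2, 5 and 4 members took another place in the DMSO order of MEC1, JVM2 and EHEB.

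Scaling by library size moved the median of all genes up by 0.248, 0.197 and 0.106 on the log2 scale with fludarabine in MEC1, JVM2 and EHEB, by 0.100 with idelalisib in JVM2, by −0.168 for idelalisib against ibrutinib in MEC1, and by 0.144 and 0.123 for MEC1 against JVM2 and EHEB with DMSO. The log2 fold changes that changed sign under it were 0.217 for BAK1 with fludarabine in MEC1, 0.0626 and 0.0550 for BCL2 with ibrutinib in MEC1 and JVM2, 0.0133 for BAK1 with ibrutinib in JVM2, 0.0190 for BCL2L2 with idelalisib in JVM2, 0.0831 for BCL2A1 with ibrutinib in EHEB, 0.0808, 0.0665 and 0.0922 for BCL2L1, MCL1 and BAX with idelalisib in EHEB, −0.0818 for BCL2L2 between the inhibitors in MEC1 and 0.0207 for BAK1 between MEC1 and JVM2. With the stricter filter they were 0.0644 for BAK1 with fludarabine in MEC1, 0.0721 for BCL2 with ibrutinib in MEC1, 0.0298, 0.0382 and 0.00469 for BCL2, BCL2L1 and BAX with idelalisib in MEC1, 0.00720 for BCL2A1 with ibrutinib in EHEB, and 0.0279, 0.0111 and 0.0375 for BCL2L1, MCL1 and BAX with idelalisib in EHEB. In the joint fit they were −0.0350 for MCL1 with ibrutinib in MEC1, 0.000301 for BAX with idelalisib in EHEB and −0.00703 for BCL2L2 between the inhibitors in JVM2. With counts divided by 8/3 they were 0.0137 for BCL2 with ibrutinib in MEC1 and 0.00380 for BAX with idelalisib in EHEB. With only the 6 libraries they were 0.00458 for BCL2 with ibrutinib in MEC1 and −0.00508 for BCL2L2 between the inhibitors in JVM2. With limma-voom they were −0.00701 for MCL1 with ibrutinib in MEC1, −0.293 for BCL2L2 with fludarabine in EHEB and −0.0269 for BCL2L2 between the inhibitors in JVM2. With no filter they were −0.0391 for MCL1 with ibrutinib in MEC1 and −0.000369 for BCL2A1 with ibrutinib in JVM2, and with DESeq2 0.00131 for BAX with idelalisib in EHEB.

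With each library left out, values that changed sign ran as follows. In MEC1 they were −0.0309 to 0.0108 for BCL2 and −0.125 to 0.123 for MCL1 with ibrutinib, and −0.222 to 0.0107 for BCL2L1 with idelalisib. In JVM2 they were −0.0474 to 0.0128 for BCL2, −0.203 to 0.0281 for BCL2L2 and −0.0195 to 0.0502 for BCL2A1 with ibrutinib, and −0.190 to 0.0391 for BCL2L2 with idelalisib. In EHEB they were −0.459 to 0.525 for BCL2L2 with fludarabine, −0.00920 to 0.0376 for BCL2, −0.0560 to 0.0486 for BCL2A1 and −0.398 to 0.0375 for BAK1 with ibrutinib, and −0.0889 to 0.0864 for BCL2L1, −0.127 to 0.0353 for MCL1 and −0.0900 to 0.0735 for BAX with idelalisib. Between the inhibitors BCL2L2 ran from −0.00881 to 0.180 in MEC1 and −0.132 to 0.119 in JVM2. With DMSO it ran from −0.0808 to 0.108 between MEC1 and JVM2, and BAK1 from −0.387 to 0.0494 between JVM2 and EHEB. Low counts limit BOK, which was not tested in the main fits.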
